A study of Mus musculus with 3 samples.

Results

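The ADAMTS genes encode secreted metalloproteases that carry thrombospondin type 1 repeats, and 9 of them (Adamts1, Adamts2, Adamts4, Adamts5, Adamts7, Adamts9, Adamts10, Adamts12 and Adamts15) were followed across 3 states of cardiac myofibroblasts. These genes were chosen because Adamts15 was known from earlier results of these data to be higher in suspension, so the values below describe the arrays and test nothing. The 9 genes belong to the 19 ADAMTS genes on the array and to the 15394 genes with a probe well above background (a flag of the scanner software) on at least 1 array. All 9 passed that filter, 8 of them on all 3 arrays. Probes were assigned to genes through the RefSeq transcript they name.

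Myofibroblasts, the contractile and matrix-producing cells of the injured heart, came from male C57BL/6J mice in which the left anterior descending coronary artery had been tied permanently 3 days earlier. The labels give the age as 8 weeks in the sample description and as 10 weeks at ligation in the protocol. Cells attached to plastic overnight were depleted of CD45-positive cells, and the CD45-negative fraction was then grown on plastic plates (adherent), moved from the plates into suspension (non-adherent), or returned from suspension to plates (re-adherent). No sham-operated animals and no genetic change enter this comparison. The RNA of each state was mixed from several hearts and hybridised to 1 array, so each group has n = 1 and no spread between replicates could be computed. According to the study's methods, the states were collected one after another and most cells were lost in suspension culture. Time in culture and survival therefore cannot be told apart from the state.

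ADAMTS proteases are made as inactive precursors, lose their prodomain to furin-like convertases and act outside the cell, where they cut proteoglycans, process procollagens or bind microfibrils. In the heart, versican is a known substrate during valve and trabecular development and after injury. Tissue inhibitor of metalloproteinases 3 (Timp3) is the chief natural inhibitor of several family members, and the endocytic receptor Lrp1 clears some of them from the matrix.

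Each array gave a signal for 59305 non-control spots, of which 58.1%, 59.9% and 53.9% were well above background for adherent, non-adherent and re-adherent cells. No such spot was saturated. Where 3 signals follow each other, they stand in the order adherent, non-adherent, re-adherent and are in scanner units before scaling. A difference between 2 arrays is a log2 value, and it and the folds are taken after the 75th percentile of each array was set to 0. Its error is the technical error that the scanner software assigned to both spots, with a median of 0.20 where both spots were well above background. Dim genes had larger errors. It does not cover variation between cultures or animals.

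The labelled cell type was compared with marker genes. All 10 fibroblast and myofibroblast markers were well above background on all 3 arrays. Acta2, which encodes α-smooth muscle actin, had a log2 difference of −6.64 into suspension and of 6.57 on re-adhesion. Although cells carrying CD45 had been removed, 12 of 14 macrophage and leukocyte markers were well above background on all 3 arrays. Of the 14 markers 13 matched a probe, and Cd68 and Cd163 gave no value that passed the filter. The gene for CD45 itself, Ptprc, gave signals of 355, 2441 and 532. Summed over the list and relative to the 75th percentile of each array, the macrophage signal was 215 before, 1322 in and 429.9 after suspension. The non-adherent array was thus the highest for this list. Of 10 endothelial markers, 10, 10 and 7 were well above background on these arrays (Tie1, Emcn and Cldn5 were not after re-adhesion). Their summed signals were 23.8, 38.9 and 22.3, and Kdr gave the largest adherent and re-adherent signals (9446 and 10320.5). Between the re-adherent and the adherent array, 9 of the 10 were lower, 7 by over 2-fold (median −1.99), beside 4.9% of all genes. Of 8 cardiomyocyte markers, 5, 7 and 4 were well above background. Ryr2 did not pass the filter, and Tnni3 and Mb passed through the non-adherent array. The sums were 1.29, 2.07 and 3.39, and Tnnt2 gave the largest signal on each array (593, 955 and 1646). On re-adhesion 5 of the 7 measured were lower, 4 by over 2-fold (median −1.13), beside 16.3% of all genes, and Tnnt2 was 2.22-fold higher. Of 6 smooth muscle and pericyte markers, the numbers were 4, 5 and 3 (Myh11 was not well above background in suspension) and the sums 1.72, 0.680 and 0.798. The part of these other cell types in the ADAMTS signals was not tested. In such mixed RNA, fewer cells of a type and less RNA per cell cannot be told apart.

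Promoter sequences from RefSeq (assembly GRCm38.p6) were found for 4 of the 9 genes, namely Adamts1, Adamts2, Adamts9 and Adamts12. They are shown because Adamts1, Adamts9 and Adamts12 were over 2-fold lower on the non-adherent array, whereas Adamts2 stayed within 2-fold between every pair of arrays. Each is the 250 bases before the annotated start, 5′ to 3′ on the strand of the gene, with the letters of a motif that was searched for in capitals.
Adamts1, chr16:85803114-85803363, minus strand: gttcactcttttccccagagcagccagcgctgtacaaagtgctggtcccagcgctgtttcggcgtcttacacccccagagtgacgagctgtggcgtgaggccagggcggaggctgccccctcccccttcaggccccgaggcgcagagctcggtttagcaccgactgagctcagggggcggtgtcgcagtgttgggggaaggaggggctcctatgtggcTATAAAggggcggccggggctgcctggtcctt
Adamts9, chr6:92943535-92943784, minus strand: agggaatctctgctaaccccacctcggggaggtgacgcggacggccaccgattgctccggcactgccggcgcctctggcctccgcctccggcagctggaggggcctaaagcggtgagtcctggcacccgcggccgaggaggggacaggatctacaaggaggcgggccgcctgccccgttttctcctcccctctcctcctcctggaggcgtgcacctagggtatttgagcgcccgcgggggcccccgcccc
Adamts12, chr15:11064523-11064772, plus strand: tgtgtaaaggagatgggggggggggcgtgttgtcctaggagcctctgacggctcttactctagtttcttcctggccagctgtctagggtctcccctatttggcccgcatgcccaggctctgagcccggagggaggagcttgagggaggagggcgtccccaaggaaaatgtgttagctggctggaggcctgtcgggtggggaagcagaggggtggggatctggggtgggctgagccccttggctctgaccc
Adamts2, chr11:50601835-50602084, plus strand: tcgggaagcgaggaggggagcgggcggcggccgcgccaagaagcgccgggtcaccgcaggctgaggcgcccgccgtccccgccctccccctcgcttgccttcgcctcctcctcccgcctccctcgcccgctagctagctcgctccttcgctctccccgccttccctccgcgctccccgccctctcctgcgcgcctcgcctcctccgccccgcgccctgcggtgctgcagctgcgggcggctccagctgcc

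On both strands of these windows, 4 motifs were searched for that are bound by factors active in contractile cells or by the basal machinery. They were the AP-1 site (TGACTCA or TGAGTCA), the TEAD site (GGAATG), the CArG box of serum response factor and the TATA box (TATAAA). The Adamts1 window held 1 match, a TATA box 32 to 27 bases before the start. In the other windows none of these motifs was present. Over 32851 promoters of the same length, 12.4% held the TATA box, 4.46% the AP-1 site, 12.6% the TEAD site and 1.47% the CArG box. The windows were rich in G and C (65.6%, 71.2%, 63.2% and 78% for Adamts1, Adamts9, Adamts12 and Adamts2), against a median of 52.4% over all promoters. On the chromosome, Adamts1 and Adamts5 have 1 annotated gene between them, which is not protein coding, and Adamts15 lies next to Adamts8 with 0 genes between.

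Between the adherent and the non-adherent array, Adamts1, Adamts5, Adamts9 and Adamts12 were lower in suspension by over 2-fold and Adamts7 and Adamts15 were higher. Of all 15394 genes, 14.7% were lower and 17.2% higher by over 2-fold in the same comparison, against 4 and 2 of the 9 ADAMTS genes. Past 4-fold, 3 of the 9 genes were lower and 2 higher, against 5.34% and 7.61% of all genes. Of the 2 higher genes, Adamts7 (2.05) lay at that limit and was under it with spike-in scaling and with the normal-exponential (normexp) background correction. The median difference of the 9 genes was −0.16, with 5 below and 4 above 0, and that of all genes was −0.07, with 53.2% below 0. The 9 genes were therefore spread to both sides, from −4.32 for Adamts5 to 5.89 for Adamts15. With spike-in scaling, 27.2% of all genes were over 2-fold lower and 11.8% higher in suspension, and the counts of 4 and 2 did not change. Because the genes were chosen on this comparison, nothing is read from these counts.

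**Figure D1:**
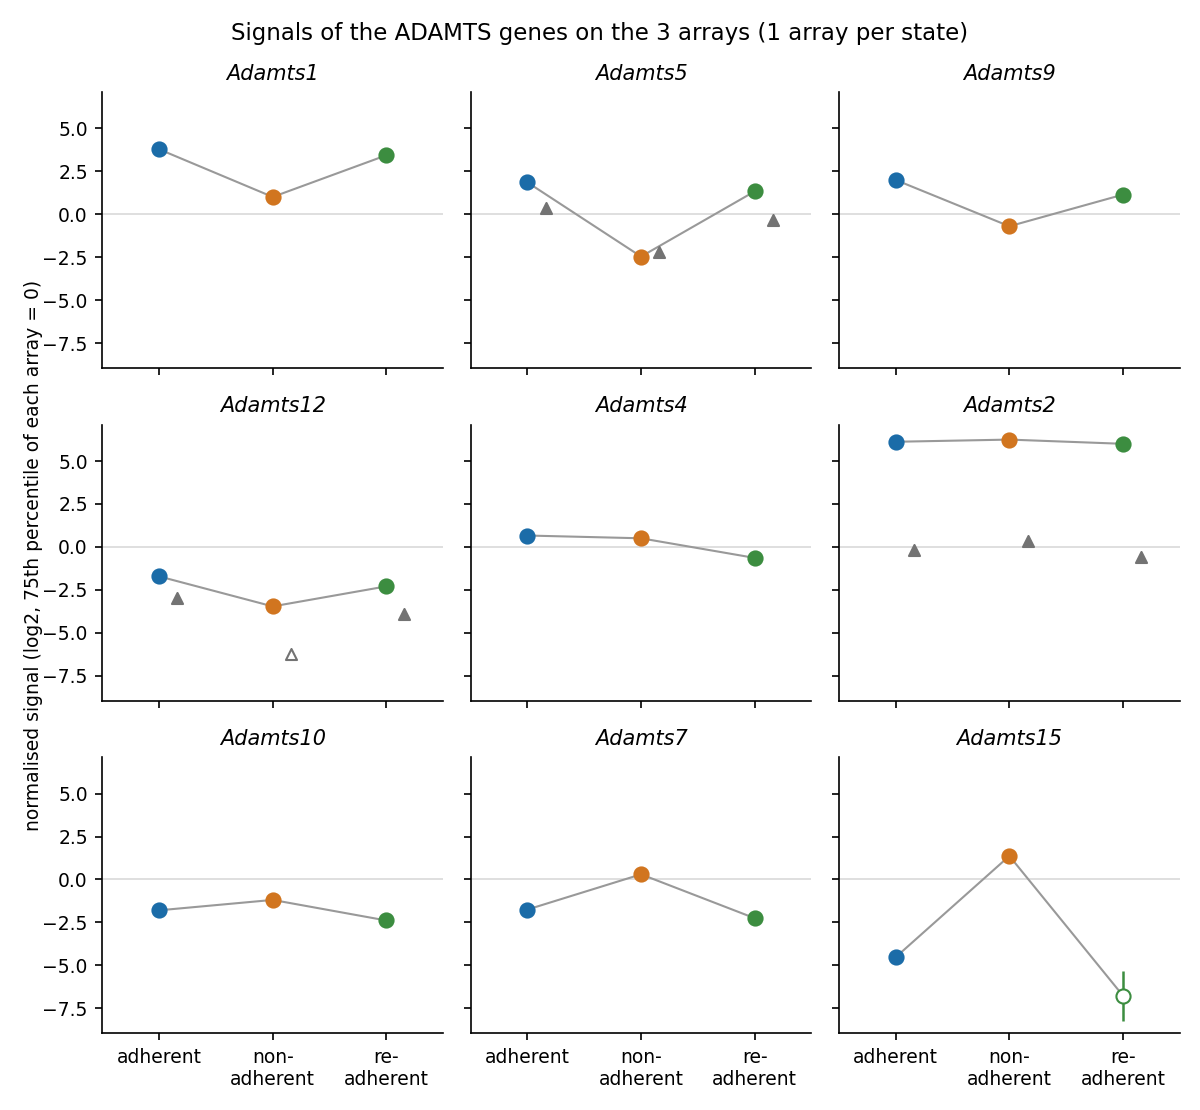
Normalised signal of the 9 ADAMTS genes in the adherent, non-adherent and re-adherent state, 1 array each (log2, 75th percentile of each array at 0). Circles are the probe used for the gene with its technical error, mostly smaller than the symbol, triangles are a second probe where the array has one, and open symbols were not well above background. Adamts1, Adamts5, Adamts9 and Adamts12 have their lowest point on the non-adherent array, and Adamts7 and Adamts15 have their highest point there. By smaller differences, Adamts10 and Adamts2 also have their highest point there.

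The proteases that cut the large aggregating proteoglycans aggrecan and versican (Adamts1, Adamts4, Adamts5, Adamts9 and Adamts15) moved in different directions. Adamts1, which cuts versican and aggrecan, gave signals of 8984 on plates, 1405 in suspension and 5867 after return to plates. The non-adherent array was thus the low one, with a log2 difference of −2.77 ± 0.20 (6.84-fold) from the adherent array, and the re-adherent array was 5.37-fold above it. Between the re-adherent and the adherent array the log2 difference was −0.35.

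Adamts5, the main aggrecan-cutting enzyme of mouse cartilage, had signals of 2363, 127 and 1366. Its log2 difference of −4.32 ± 0.21 between the non-adherent and the adherent array, or 19.98-fold, was the lowest of the 9 genes. On re-adhesion the signal was 13.9-fold higher again. A second Adamts5 probe gave 837, 150 and 430 and the same order of arrays, but with log2 differences of −2.58 into suspension and 1.89 out of it, so the size of the change depended on the probe.

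Adamts9, a versican-cutting enzyme that many cell types secrete, gave 2599, 430.2 and 1199. In suspension it was lower by 6.47-fold (log2 difference −2.69), and after re-adhesion it was 3.59-fold higher than in suspension. The log2 difference between the re-adherent and the adherent array was −0.85.

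Adamts4, an aggrecan- and versican-cutting enzyme, differed from these genes in its order of arrays. Its signals of 1029 on the adherent and 986 on the non-adherent array lay within the technical error of each other (log2 difference −0.16), and its signal on the re-adherent array was 347. The re-adherent array was lower than the non-adherent one by 2.21-fold (log2 difference −1.14) and lower than the adherent one by 2.47-fold (−1.30 ± 0.20).

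Adamts15, which also cuts versican and aggrecan, gave low signals on plates. Its signals were 28.3, 1799 and 4.97, and the last of these did not reach the level called well above background. From adherent to non-adherent cells the log2 difference was 5.89 ± 0.30 (59.4-fold), and 9 of the 15394 genes had a higher one. The family was chosen because of this rise, so nothing is read from the rank. The non-adherent signal was at least 76.2-fold above the re-adherent one, a bound set by the dimmest re-adherent signal that was well above background. The measured log2 difference of that step was −8.14 ± 1.46, and at the bound it was −6.25. On the adherent array the signal was at least 1.28-fold above that on the re-adherent array. Background correction mattered for this gene: with a normal-exponential (normexp) correction the change into suspension was 3.99 and the change out of it −4.06. Adamts15 was read by 1 probe.

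**Figure D2:**
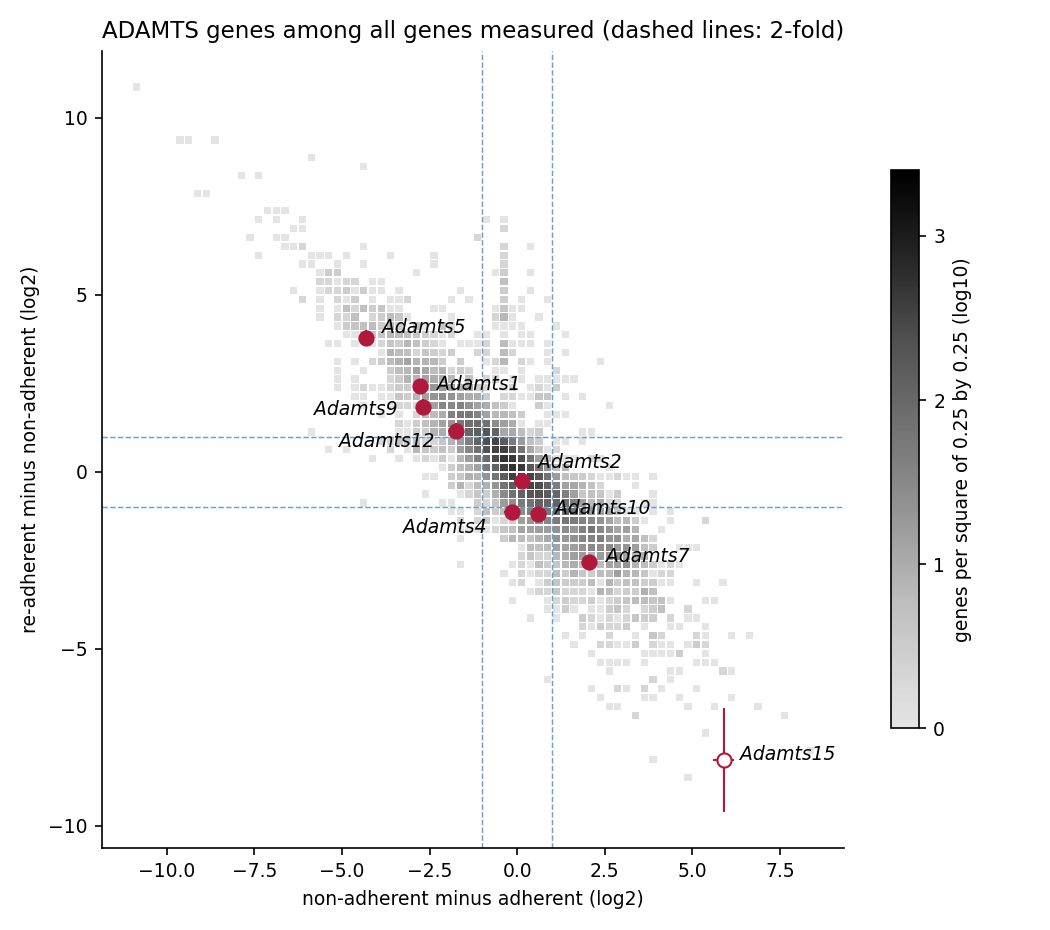
Each ADAMTS gene (red) among all 15394 genes (grey squares, darker where more genes lie), with the log2 difference non-adherent minus adherent on the x axis and re-adherent minus non-adherent on the y axis. The axes share the non-adherent array, so the slope of the cloud is no result. Dashed lines mark 2-fold, bars are technical errors, and Adamts15 is drawn open because its re-adherent signal lay below that level. Adamts5 lies at the upper left and Adamts15 at the lower right of the 9 genes.

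The genes whose 2 steps lay closest to those of Adamts15, among 13479 genes well above background on all 3 arrays, were Igfbp5, Sparcl1, Fbln7, Ednrb and Fosb. The distances in the plane of both log2 differences were 1.82, 2.61, 2.79, 2.86 and 2.87 as measured. They rest on the dim re-adherent signal of Adamts15, and with Adamts15 at its bound the order began with Igfbp5 (0.97), Fbln7 (1.05), Fosb (1.06) and Ednrb (1.39) and had Sparcl1 at rank 10 (1.94). Igfbp5, which encodes an insulin-like growth factor binding protein, gave 142, 17070 and 140.3. Sparcl1, which encodes the matrix protein hevin, gave 1239, 20657 and 193. Fbln7 encodes a fibulin, Ednrb an endothelin receptor and Fosb a subunit of the AP-1 transcription factor, and their signals also were highest on the non-adherent array (3419, 2840 and 5479). Adamts15 itself was not well above background on all 3 arrays. Genes that were likewise dim after re-adhesion were left out of this search. Among them was the endothelial marker Cldn5, with log2 differences of 3.77 into suspension and −8.03 out of it. Over 3 arrays, likeness to Adamts15 is a description of 2 values per gene.

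Adamts7 and Adamts12, which cut cartilage oligomeric matrix protein (Comp), went in opposite directions in suspension. Adamts7 gave 193, 857 and 113. It was 4.15-fold higher in suspension (log2 difference 2.05 ± 0.21) and then lower by 5.87-fold (−2.55) after re-adhesion. With spike-in scaling the first difference was 1.61, and with the normexp correction the differences were 1.70 and −1.97, each under 4-fold. Adamts12 gave 198, 63.1 and 109.99, with log2 differences of −1.75 ± 0.22 into suspension and 1.17 ± 0.23 out of it. For its second probe the signals were 83.9, 9.05 and 36.7, the middle one not well above background, so the adherent array was at least 6.41-fold and the re-adherent array at least 3.37-fold above the non-adherent array. For the rise of Adamts12 on re-adhesion the setting mattered, since it was 0.78 with the normexp correction and was also under 2-fold without scaling and in the authors' values.

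Adamts2, which removes the amino-terminal propeptide of fibrillar procollagens, differed least between the arrays among the 9 genes. Its signals were 45324, 52958 and 34712, with log2 differences of 0.13, −0.25 and −0.12 and a technical error of 0.20 for each. The sign of the first difference turned to −0.31 when the arrays were scaled to spike-in probes. A second probe, with 565, 891 and 365, had the same order of arrays and differences of 0.56 and −0.92 for these steps.

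Adamts10, which binds fibrillin-1 and microfibrils, gave 187, 305 and 103. In suspension it was 1.52-fold higher (log2 difference 0.61 ± 0.21), and on re-adhesion it was lower by 2.29-fold (−1.20). With the normexp correction the second step was −0.83, under 2-fold.

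On re-adhesion, Adamts1, Adamts5, Adamts9 and Adamts12 were over 2-fold higher than on the non-adherent array, and Adamts4, Adamts7, Adamts10 and Adamts15 were over 2-fold lower. Among all genes 15.6% were higher and 16.3% lower by that much. The split depended on the scaling: without scaling 9.90% of all genes were higher and 23.4% lower, and 3 and 4 of the 9 genes were, Adamts12 being the one that no longer passed. Past 4-fold there were 2 genes higher (Adamts1 and Adamts5) and 2 lower (Adamts7 and Adamts15), against 5.7% and 6.05% of all genes. With the normexp correction Adamts7 (−1.97) was under 4-fold. The median of the 9 genes was −0.25 and that of all genes 0.08. This comparison shares the non-adherent array with the one before, so the counts are not independent of each other.

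The re-adherent array was lower than the adherent array for 9 of the 9 genes, and the measured median log2 difference was −0.58. The measured value of Adamts15, −2.24 ± 1.48, was taken against a signal not well above background. At its bound of 1.28-fold it was −0.36 and the median −0.52. For the other genes the differences lay between −1.30 (Adamts4) and −0.12 (Adamts2), the latter within its technical error of 0.20. Over all genes the median was 0.06 and 43.9% were below 0. Counted on measured values, 2 genes (Adamts4 and Adamts15) were over 2-fold lower (4.9% of all genes) and 0 were over 2-fold higher (4.84%). At the 4-fold limit 1 gene, Adamts15, was lower (1.29% of all genes) and 0 were higher (1.36%). With Adamts15 at its bound the counts were 1 past 2-fold, Adamts4, and 0 past 4-fold, so these arrays do not show that Adamts15 passed either limit. With the normexp correction its difference was −0.07. The scaling of the arrays set how many genes passed in this comparison. With spike-in scaling, which shifted the median of all genes by −0.51, 7 of the 9 genes were over 2-fold lower (all but Adamts1 and Adamts2), and of all genes 13.2% were lower and 2.18% higher. In the authors' values and without scaling the count was 3, with Adamts9 added. The difference was below 0 for each gene measured under each of the 12 alternatives that were run. A lower re-adherent signal was not particular to these 9 genes, since the 9 substrate genes described below were all lower too (median −0.52). Of 5 other ADAMTS genes measured, 2 were lower and 3 higher (median 0.42). Among the 3 higher genes, only Adamts8 (0.51) was well above background on both arrays. Adamts17 was so on neither of them, and Adamts16 on the re-adherent one alone. With spike-in scaling 3 were lower and 2 higher (median −0.09), so these genes do not settle whether the whole family shared it.

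**Figure D3:**
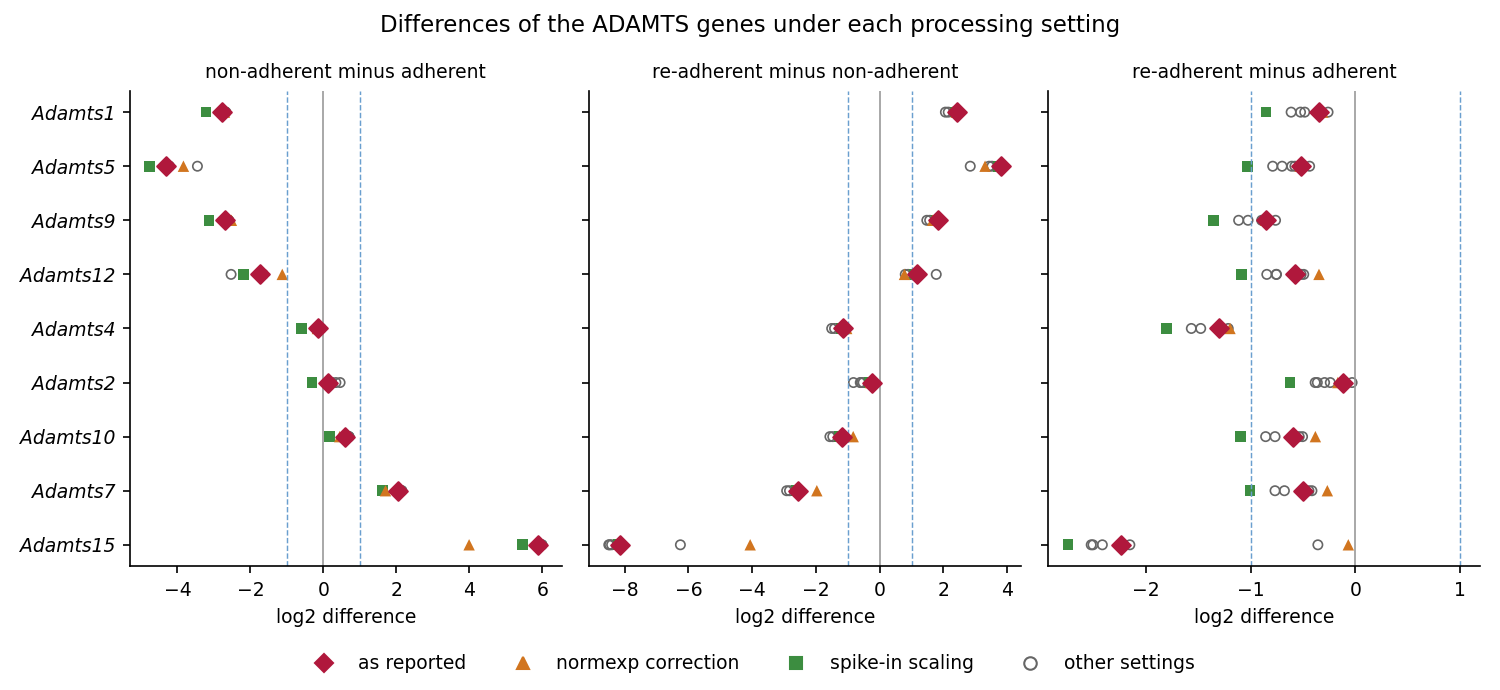
Log2 differences of the 9 ADAMTS genes between each pair of arrays as reported (diamonds), with the normexp background correction (triangles), with spike-in scaling (squares) and with the other settings (circles). Dashed lines mark 2-fold. In the left panel the sign turns for Adamts2 alone, with spike-in scaling. In the right panel 7 of the 9 genes lie past 2-fold lower with spike-in scaling, against 2 as reported.

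Among the 10 other ADAMTS genes, 5 passed that filter, and the other 5 (Adamts3, Adamts13, Adamts18, Adamts19 and Adamts20) did not. Adamts14, like Adamts2 a procollagen N-proteinase, gave 2733, 1640.2 and 2039, all within 2-fold of each other (−0.83, 0.68 and −0.16). Spike-in scaling took the first difference to −1.27. A second, dimmer Adamts14 probe gave 24.1, 25.9 and 30.2. Adamts6, a relative of Adamts10, gave 103, 9.62 and 29.2, the middle signal not well above background. By the bound used here, the adherent signal was at least 7.85-fold and the re-adherent signal at least 2.68-fold above it. With the normexp correction the log2 differences of Adamts6 were smaller, −1.10 into suspension and 0.64 on re-adhesion, the latter under 2-fold. Adamts8, the chromosomal neighbour of Adamts15 and another proteoglycan-cutting enzyme, gave 79.2, 78.4 and 93.6. A second Adamts8 probe gave 54.9, 5.29 and 45.3, where the non-adherent signal was not well above background and the others were at least 4.19-fold and 4.16-fold above it, so its probes did not give 1 pattern. Neither probe showed the high non-adherent signal of Adamts15. Adamts16 was well above background in re-adherent cells alone (33.1) and Adamts17 in suspension alone (32.9), each by 1 probe. Their second probes, with 6.44, 7.97 and 8.41 for Adamts16 and 13.2, 10.2 and 5.99 for Adamts17, were not well above background on any array.

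ADAMTS-like proteins share the repeats of the family but lack the protease domain. Of 6 such genes 5 had a probe well above background on at least 1 array (Adamtsl5 matched no probe). Into suspension 2 were over 2-fold lower and 1 higher, beside 14.7% and 17.2% of all genes. With the normexp correction 1 was lower, since Adamtsl1 no longer passed. Adamtsl2, which binds fibrillin-1 and the latent TGF-β complex, gave 62.0, 327 and 41.6, with log2 differences of 2.30 and −2.61 for these steps. Adamtsl3 gave 148, 26.1 and 54.5, a difference of −2.60 into suspension. Adamtsl1 gave 31.9 on the adherent array and was not well above background on the others. Adamtsl4, a fibrillin-binding protein, stayed within 2-fold (797, 635 and 809.7).

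Substrates of the family were compared next. Of 9 substrate genes measured (Ncan did not pass the filter), 3 were over 2-fold lower in suspension and 1 was higher, with a median of −0.78, beside 14.7% and 17.2% of all genes. The count of lower genes was 6 with spike-in scaling (median −1.21) and 2 with the other scalings. Versican (Vcan) gave 4391, 2745 and 2300, within 2-fold between all pairs, although spike-in scaling took the difference into suspension from −0.78 to −1.21. Comp, cut by Adamts7 and Adamts12, gave 282, 1956 and 92.5, with log2 differences of 2.70 and −4.04 for these steps. The non-adherent array was thus the highest for Comp and for Adamts7, and the lowest for Adamts12. The fibrillin gene Fbn1 had a difference of −1.29 into suspension, and Fbn2 gave 719, 242 and 69.9, lower at each step (−1.67 and −1.43). Of the collagen genes, Col1a2 lay at the 2-fold limit in suspension (−1.01, and −0.48 under another scaling), and Col1a1 (−0.70) and Col3a1 (0.19) were within it. On re-adhesion 2 substrate genes (Comp and Fbn2) were over 2-fold lower and 0 were higher, beside 16.3% and 15.6% of all genes. That lower count was 1 with the normexp correction and 3 with quantile, spike-in or no scaling, in the authors' values and without the filter on dim probes. Against the adherent array the same 2 genes were over 2-fold lower on the re-adherent array, beside 4.9% of all genes. That count was 5 with spike-in scaling and 1, Fbn2, with the normexp correction.

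Genes of inhibitors, of the clearing receptor and of cofactors also went both ways, with 3 of 7 over 2-fold lower and 2 higher in suspension. Of all genes, 14.7% were lower and 17.2% higher by that much. The count of higher genes in this list was 1 with spike-in scaling and 3 with quantile scaling. Timp2 was over 2-fold higher with quantile scaling, without scaling and in the authors' values. Timp3 gave 33878, 4105 and 30381 (−3.14 into suspension and 3.25 out of it). Timp1 had differences of −2.75 into suspension and 2.10 out of it. Timp2 had differences of 0.91 into suspension and 1.02 between the re-adherent and the adherent array, values near 2-fold that ranged from 0.47 to 1.37 and from 0.51 to 1.11 over the scalings. Timp4 was well above background in suspension alone. Fbln1, which encodes fibulin-1, a cofactor of Adamts1 in cutting aggrecan, gave 1661, 23532 and 1132 (3.73 and −4.01). For Lrp1 the differences were 1.04 into suspension (0.61 with spike-in scaling) and −1.16 out of it. Sdc4, which encodes syndecan-4, a membrane proteoglycan tied to Adamts5 activity, had a difference of −1.37 into suspension.

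**Figure D4:**
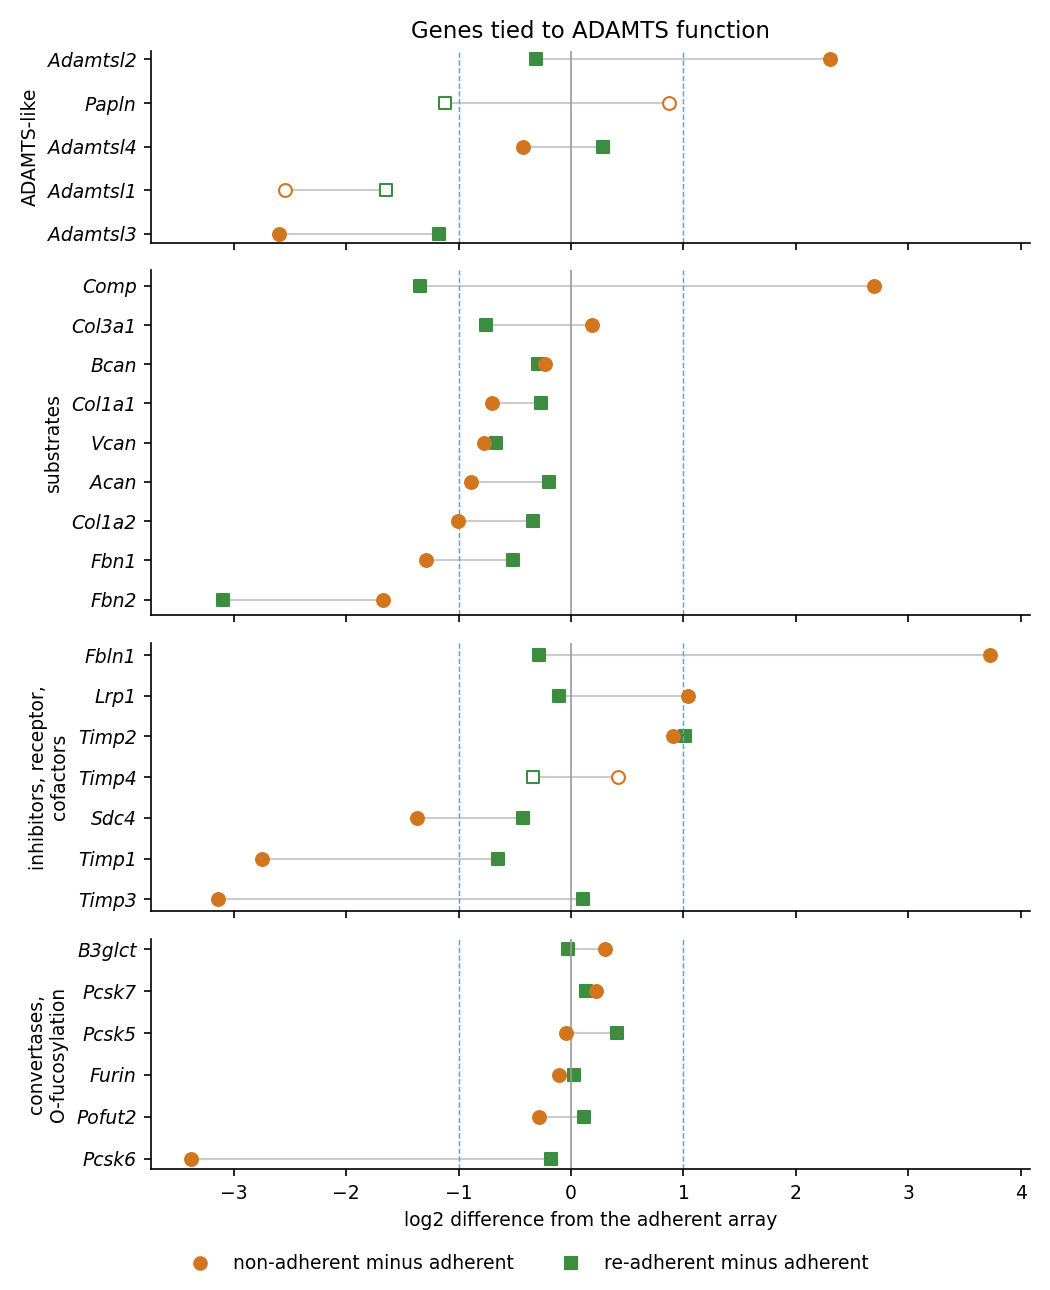
Log2 differences from the adherent array for genes tied to ADAMTS function, with circles for the non-adherent and squares for the re-adherent array. Open symbols mark genes not well above background on at least 1 array of the pair, and dashed lines mark 2-fold. Fbln1, Comp and Adamtsl2 lie farthest to the right on the non-adherent array and Pcsk6, Timp3 and Timp1 farthest to the left.

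The enzymes that mature ADAMTS proteins were mostly flat. Of 6 convertase and O-fucosylation genes 1 was over 2-fold lower in suspension and 0 were higher, beside 14.7% and 17.2% of all genes. That gene was Pcsk6, a convertase that activates aggrecan-cutting ADAMTS enzymes, which gave 9593, 986 and 7048 (−3.38 and 3.20). Furin, the convertase best known for this step, gave 8802, 8722 and 7461. Pcsk5 and Pcsk7, and the enzymes that add fucose and then glucose to thrombospondin repeats (Pofut2 and B3glct), stayed within 2-fold between all pairs of arrays.

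The marker lists differed between the arrays as well. Into suspension, 17.2% of all genes were over 2-fold higher and 14.7% lower. Of the macrophage markers 11 of 12 were over 2-fold higher (median 2.69), and of the endothelial markers 7 of 10 (median 1.73). Adamts7 (2.05) and Adamts15 (5.89) moved in the same direction as these lists. On re-adhesion 11 of 12 macrophage markers (median −1.60) and 9 of 10 endothelial markers (median −3.43) were over 2-fold lower. Of all genes 16.3% were lower by that much. Of the 10 fibroblast and myofibroblast markers 5 were over 2-fold lower in suspension, among them Thy1 (−3.50) and Tcf21 (−1.75), and 2 were higher, Dcn (1.69) and Lum (3.56). Pdgfra, a receptor found on fibroblasts, stayed within 2-fold (−0.55). The fibroblast list summed to 1658, 759.6 and 1405 on the 3 arrays. Whether these cell types set any ADAMTS value was not tested.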

How the data were processed

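RNA of adherent, non-adherent and re-adherent myofibroblasts was measured on 3 one-colour Agilent SurePrint G3 mouse arrays (1 slide, 1 scan time per the file headers). The deposited scanner output held spot intensities as background-subtracted, spatially detrended processed signal from Agilent Feature Extraction 10.10.1.1, with an error and flags per spot. The authors' matrix held intensity values equal to that signal times 1.52, 1.52 and 1.62 per array, and was kept as an alternative.

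Here, control spots and spots flagged as outliers (154, 180 and 175) were left out, the log2 processed signal was reduced by the 75th percentile of each array, and spots of a probe were averaged. Of 37881 transcript names 21465 matched RefSeq (GRCm38.p6), giving symbols to 27235 of 55681 probes. The array was designed on an earlier assembly, so no probe coordinates are given. The promoter windows and the order of genes on the chromosome are those of GRCm38.p6. A gene was read by its brightest probe among those well above background on at least 1 array. With 1 array per group, differences carry no p-value and only technical error. They were called past 2-fold, with 4-fold as a stricter limit, and fold bounds against a dim array used its smallest signal with the flag for well above background (16.7, 14.0 and 18.3). The number of arrays limits the precision.

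Members and lists were chosen with earlier results of these data known. Named genes were the 9 members, lists of related genes, cell type markers and the 5 genes nearest to Adamts15. These 5 were sought among genes well above background on all 3 arrays. Protein features were planned and not analysed here. The 12 alternatives covered scaling, background, probe choice, filters and flagged or patchy spots, and the spike-in scaling (10 probes) was added after seeing the data. The normexp correction (offset 50) used the median spot signal. The script was tested on simulated data. Tools were Python 3.11.15, numpy 2.4.6, pandas 2.3.3, matplotlib 3.10.9, R 4.3.3 and limma 3.58.1.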

Additional observations from a re-analysis of the deposited data

How the results depend on the processing

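With 1 array per state, leaving out a replicate was not possible. No paired analysis was possible because the states have 1 array each. Against the values reported, 257 of the single-gene differences under the alternatives moved by less than the technical error and 64 by more, with 1 change of sign, that of Adamts2 into suspension (0.13 to −0.31 with spike-in scaling). Into suspension, the count of genes over 2-fold lower stayed at 4 under all 12 alternatives. That of genes over 2-fold higher was 1 in place of 2 with the filter on all 3 arrays, which leaves out Adamts15. At 4-fold the counts on re-adhesion were 2 lower and 2 higher in place of 4 and 4. Between the re-adherent and the adherent array the count over 2-fold lower was 2 as reported, 7 with spike-in scaling, and 1 with the normexp correction, with dim signals set to a floor, with the filter on all 3 arrays, or at 4-fold. Scaling shifted the median of all genes, by −0.44 (non-adherent minus adherent) and −0.51 (re-adherent minus adherent) with spike-in scaling and by −0.36 (re-adherent minus non-adherent) without scaling. Adamts15 varied from 3.99 to 5.99 into suspension and from −8.50 to −4.06 out of it. The causes of these shifts were not tested. Signals near background limit Adamts15, Adamts6 and the second probe of Adamts12, for which folds against a dim array were given as bounds. Adamts16 and Adamts17 were well above background on 1 array each, by 1 probe each.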
